A study of Homo sapiens with 6 samples.

Results

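Renal epithelial lineage genes are the transcription factors, membrane proteins and keratins by which a kidney tubule cell, or a carcinoma derived from one, is recognised. The 9 genes taken here were PAX8, PAX2, FXYD2, CDH6, ANPEP, MME, KRT8, KRT18 and KRT19, named by their function and matched by symbol, and all 9 were found among the 19669 genes of the deposited table. They were measured in 786-O cells, an established line from a clear cell renal cell carcinoma that lacks functional VHL, by RNA-seq and by Ribo-seq, which sequences the stretches of mRNA that ribosomes shield from nuclease. For Ribo-seq alone, cells received cycloheximide, which halts ribosomes, at 100 µg/ml before lysis. Each assay has 1 library for each of 3 labels, and all of them are 786-O cells grown in 10 cm dishes, of which the design text gives 3 per condition. EV is the empty vector. WT is PHYHD1-WT in the series title and an untreated group in the design text, and MT is PHYHD1△107-130, a deletion form, in the title and overexpression of PHYHD1 in the design text. No source used here gives the vector's promoter or says whether each line is 1 clone. PHYHD1 belongs to the iron- and 2-oxoglutarate-dependent dioxygenases.

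PAX2 and PAX8 are paired-box transcription factors that establish the nephron lineage in the embryo, and PAX8 is kept in most renal carcinomas, where pathologists use it as a marker. FXYD2 is the gamma subunit that adjusts the tubule's sodium pump, CDH6 (K-cadherin) joins neighbouring proximal tubule cells, and ANPEP (CD13) and MME (CD10, neprilysin) are zinc peptidases of the brush border. KRT8, a type II keratin, pairs with the type I keratins KRT18 or KRT19 into the filaments of simple epithelia.

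RNA-seq values are taken to be FPKM, which divide fragments by the length of the transcript and the size of the library. Ribo-seq values are TPM, which are also per length and share a single total. Differences are on the log2(value + 1) scale, which understates those of low genes. A gene is said to pass the 2-fold rule when its difference is at least 1 in size, and only genes at 1 unit or more in a library compared are counted. With 1 library per label and assay there is no replicate error, so no test was made and no p-value is given, and each comparison is between libraries. Read totals are not in the table, so the depth behind each value is unknown. PHYHD1 mRNA was at 0.092 FPKM under EV, 118 under WT and 109.5 under MT. Its footprints were at 0, 222 and 905 TPM in that order. WT and MT thus both stood far above EV in each assay, although the design text calls WT untreated. Values per gene do not show which form of PHYHD1 a library holds. Of 8 markers of the line 6 reached 1 FPKM in mRNA, NDUFA4L2 reached 1 unit in footprints alone and CA9 in neither assay, and none of 5 endothelial or 4 erythroid markers did. The 7 fibroblast markers summed to 1.36 to 3.01 FPKM and the 6 leukocyte markers to 5.52 to 9.18 FPKM, nearly all of it CD68, with PTPRC and CD3E under 1 unit everywhere.

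The labels WT and MT did not go together between the assays. Among 4722 genes at 10 units or more in all 6 libraries, the WT over MT difference in RNA-seq and that in Ribo-seq had a Spearman correlation of -0.14 across genes. Of the 75 genes among them whose mRNA difference was 0.5 or more in size, 58 had a footprint difference of the opposite sign. The WT over EV mRNA difference had a correlation of -0.02 with the WT footprint difference and 0.05 with that of MT. For MT over EV mRNA the values were -0.02 with the MT footprint difference and 0.08 with that of WT. These are descriptions across genes, which share their libraries and are not replicates. Whether a pair of labels was exchanged in one assay or mRNA and footprints moved apart in the cells cannot be told apart with these data. Labels are therefore used as deposited, and each result of the 9 genes that joins both assays is also given with WT and MT exchanged in Ribo-seq.

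All 9 genes were detected in every library, from 0.797 to 224 FPKM in mRNA. In mRNA KRT8 was the most abundant in all 3 libraries and MME the least. PAX8 (75.9 to 94.0 FPKM) and KRT18 (77.7 to 99.0 FPKM) overlapped across libraries, and so did FXYD2 (9.55 to 23.2 FPKM) and ANPEP (14.1 to 16.9 FPKM), so neither pair has a fixed order. The ranges of KRT19 (1.96 to 6.06 FPKM) and MME (0.797 to 2.06 FPKM) also overlapped, but KRT19 was above MME within each library. CDH6 (40.0 to 75.6 FPKM) lay under PAX8 and above FXYD2 in every library, and PAX2 (7.65 to 8.54 FPKM) lay between FXYD2 and KRT19. In footprints KRT18 led in all 3 libraries and MME was again the lowest.

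**Figure D1:**
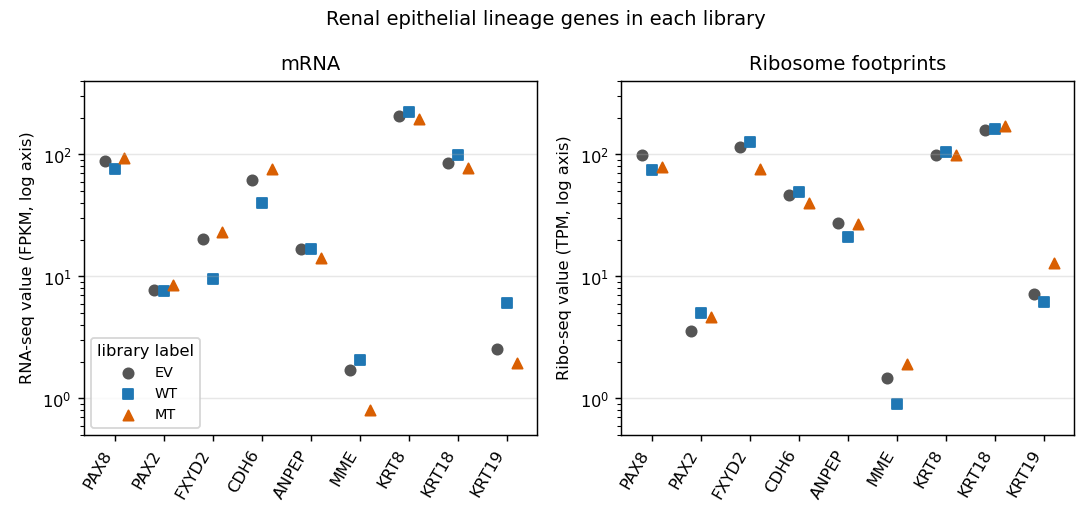
RNA-seq values in FPKM (left) and Ribo-seq values in TPM (right) of the 9 genes on log axes, 1 point per library, with the label EV as circles, WT as squares and MT as triangles. KRT8 leads in mRNA and KRT18 in footprints, and with labels as deposited the WT square that is lowest for FXYD2 mRNA (9.55 FPKM) is the highest for its footprints (128 TPM).

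PAX8 mRNA values were 88.5, 75.9 and 94.0 FPKM for EV, WT and MT. Its footprints stood at 98.8, 74.5 and 78.2 TPM in the same order. WT was the lowest library in both assays, and EV was the highest in footprints. None of these differences passed the 2-fold rule, the largest being -0.40 in footprints of WT over EV. In the EV library PAX8 mRNA was above 95.9% of all genes. A long noncoding gene, PAX8-AS1, overlaps PAX8 in the RefSeq annotation and is not among the rows used, and no source used here says whether reads were counted by strand.

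PAX2 was far less abundant, with 7.76, 7.65 and 8.54 FPKM in EV, WT and MT. The ratio of PAX8 to PAX2 was between 9.93 and 11.4 in mRNA. PAX2 footprints were 3.54, 5.02 and 4.64 TPM, and EV was the lowest library. PAX8 and PAX2 footprints thus lay on opposite sides of EV in both comparisons, with PAX2 at 0.41 in WT over EV and 0.31 in MT over EV. These sizes are common in Ribo-seq, where the robust SD across genes at 1 to 10 TPM was 0.40 and 0.36. In footprints the same ratio was 27.9, 14.8 and 16.8, with EV the highest.

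FXYD2 mRNA varied 2.43-fold across the libraries. Its values were 20.5, 9.55 and 23.2 FPKM for EV, WT and MT, so the WT library was low and the other two were close. Its footprints were at 115, 128 and 75.6 TPM in that order, so there the MT library was low. In mRNA the WT over EV difference was -1.02 and the WT over MT difference was -1.20, and both passed the 2-fold rule. The second ranked 12 from the bottom of 11013 genes. The footprint differences were 0.14 for WT over EV, -0.61 for MT over EV and 0.75 for WT over MT, none of which passed. A readthrough row that joins FXYD2 to FXYD6 was listed at 0 in the mRNA of all 3 libraries and at 1.998 TPM or less in footprints, and adding it to FXYD2 changed no sign and no call.

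CDH6 resembled FXYD2 in which library was low in each assay. Its mRNA stood at 61.5, 40.0 and 75.6 FPKM in EV, WT and MT, with differences of -0.61 for WT over EV, 0.29 for MT over EV and -0.90 for WT over MT. Its footprints were 46.6, 49.3 and 40.2 TPM, with MT the lowest. The mRNA difference between WT and MT fell short of the 2-fold rule. It lay outside the central 95% of genes at 10 to 100 FPKM, which ran from -0.35 to 0.37. Footprint differences of CDH6 were at most 0.29 in size, within the central range of -0.60 to 0.60 for genes of that level in WT over MT.

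ANPEP encodes a peptidase that trims amino acids from the N-terminal end of peptides. Its mRNA was 16.9, 16.7 and 14.1 FPKM in EV, WT and MT, and its footprints were 27.3, 21.1 and 26.7 TPM. MT was the low library in mRNA and WT the low library in footprints, and no difference within an assay exceeded 0.36 in size. RefSeq places 2 start sites in ANPEP, and values per gene do not show which was used.

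MME, which cleaves small peptides at the cell surface, was close to the level of 1 unit from which genes were counted. Its mRNA was 1.72, 2.06 and 0.797 FPKM in EV, WT and MT, and its footprints were 1.49, 0.901 and 1.92 TPM. MT was the lowest library in mRNA and WT the lowest in footprints. On the log2(value + 1) scale the WT over MT difference was 0.77 in mRNA and -0.62 in footprints, and neither passed the rule. Without the added 1, WT was 2.59 times MT in mRNA and 0.468 times MT in footprints.

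The keratin pair of simple epithelia varied little, by 1.15-fold for KRT8 and 1.27-fold for KRT18 in mRNA and by 1.07-fold and 1.08-fold in footprints. KRT8 mRNA stood at 208, 224 and 195 FPKM in EV, WT and MT, and its footprints at 99.4, 105 and 98.2 TPM. KRT18 mRNA stood at 84.4, 99.0 and 77.7 FPKM, and its footprints at 159, 161 and 173 TPM. For both keratins the WT library was highest in mRNA and MT lowest, by 0.20 for KRT8 and 0.35 for KRT18 between the ends. The order of the partners differed between assays in every library. KRT8 mRNA was 2.13 to 2.45 times the summed mRNA of KRT18 and KRT19, whereas KRT8 footprints were 0.530 to 0.631 times theirs. The reference annotation lists 52 processed copies of KRT8 and 68 of KRT18, and the KRT8 and KRT18 genes overlap each other, so their levels are uncertain where the counting could have split reads.

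KRT19, a keratin of ducts and of less differentiated epithelium, was low and variable. Its mRNA was 2.55, 6.06 and 1.96 FPKM in EV, WT and MT, and its footprints were 7.21, 6.16 and 12.8 TPM. WT stood apart as the high library in mRNA, and MT as the high library in footprints. The mRNA difference of WT over MT was 1.26 and passed the rule, ranking 14 from the top of 11013 genes, while that of WT over EV was 0.99 and fell just short. In footprints MT over EV was 0.75 and WT over MT was -0.95. KRT19 also has 5 processed copies in the reference annotation.

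Across the set few differences passed the 2-fold rule within an assay. In mRNA 1 of the 9 genes passed in WT over EV (FXYD2, lower), where 0.499% of all genes measured did. None of the 9 passed in MT over EV, where 0.29% of all genes did. In WT over MT 2 of 9 passed, FXYD2 lower and KRT19 higher, beside 0.508% of all genes. In footprints none of the 9 passed in WT over EV, MT over EV or WT over MT, and the shares over all genes were 3.36%, 2.83% and 3.19%. The medians of the 9 genes were -0.02, -0.09 and 0.20 in the 3 mRNA comparisons, against -0.01, -0.01 and 0.00 over all genes. In footprints they were 0.01, -0.02 and -0.07, against 0.03, 0.01 and 0.01. The comparisons with EV share its library, and so do those that use WT or MT again.

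Members split into those lower and those higher in WT than in MT mRNA. PAX8, PAX2, FXYD2 and CDH6 were lower, by 0.30, 0.14, 1.20 and 0.90. KRT8, KRT18, KRT19, ANPEP and MME were higher. In footprints 7 of the 9 had the opposite sign, the exceptions being PAX8 and KRT8. Over all 10352 genes measured in both assays 52.9% had opposite signs. Among the 75 genes at 10 units or more in all 6 libraries with an mRNA difference of 0.5 or more, the share was 77.3%. That second share is not a like background for the 9. PAX8, PAX2, KRT8, KRT18 and ANPEP differed by less than 0.5 in mRNA. FXYD2, PAX2, KRT19 and MME fell under 10 units in at least 1 library. With WT and MT exchanged in Ribo-seq, the 7 members of opposite sign would have the same sign in both assays, and PAX8 and KRT8 opposite ones.

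**Figure D2:**
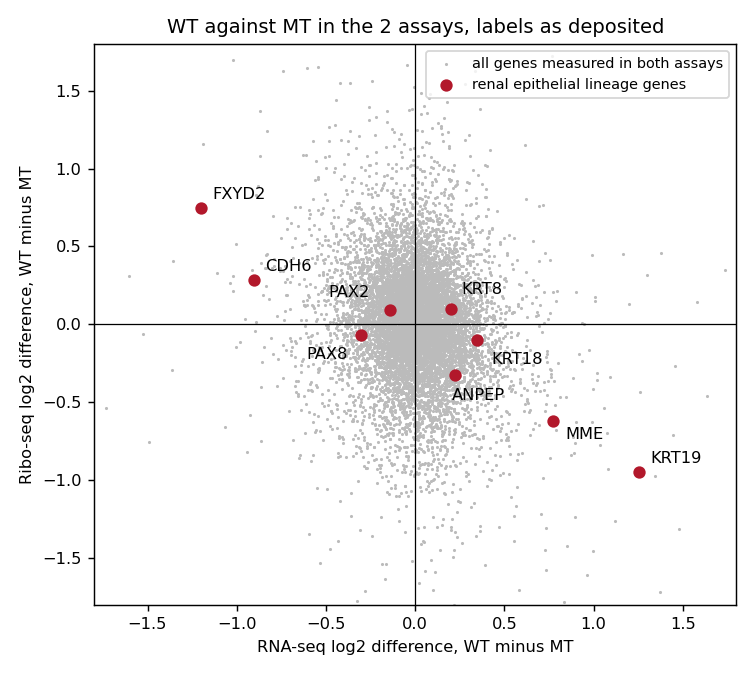
RNA-seq log2 difference (x axis) against Ribo-seq log2 difference (y axis) of WT minus MT, labels as deposited, for 10352 genes measured in both assays (grey; 33 of them lie outside the plotted range) and the 9 renal epithelial lineage genes (red). FXYD2 (-1.20 and 0.75) and KRT19 (1.26 and -0.95) mark the ends of a run of members from upper left to lower right.

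The ratio of footprint to mRNA value was set against the median gene of the same pair of libraries, since TPM and FPKM differ in scale. In EV, the only label whose pairing does not touch WT or MT, FXYD2 stood at 5.13 times the median gene, above 95.2% of 10068 genes. KRT19 followed at 2.57 times, KRT18 at 1.71 times and ANPEP at 1.47 times. PAX8 was at 1.02 times, close to the median gene. Below it were MME (0.785), CDH6 (0.688), KRT8 (0.434) and PAX2 (0.415). PAX8 and PAX2, related transcription factors, thus differed in this ratio, as did the partner keratins KRT18 and KRT8. Dividing by the median gene does not remove a difference between assays in the length used for a gene. No source used here gives those lengths, so ratios of different genes may not be alike in scale. The levels of KRT8 and KRT18 are also uncertain, as said above.

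As deposited, FXYD2, KRT18, ANPEP, KRT8 and PAX2 stayed on the same side of the median gene under the other labels. KRT19, MME, CDH6 and PAX8 did not. FXYD2 was at 11.8 times the median gene in WT and 2.94 times in MT as deposited, and at 7.11 and 4.87 times with WT and MT exchanged in Ribo-seq. KRT19 was at 0.901 and 5.90 times as deposited, and at 1.90 and 2.79 times with the exchange. CDH6 was at 1.09 and 0.480 times as deposited, and at 0.903 and 0.577 times with the exchange. PAX8 was at 0.870 and 0.751 times as deposited, and at 0.926 and 0.702 times with the exchange. MME was at 0.387 and 2.18 times as deposited. With the exchange MME was at 0.838 times in WT and level with the median gene in MT. KRT8 stayed between 0.394 and 0.478 times in WT and MT under either pairing, and PAX2 between 0.490 and 0.582 times.

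**Figure D3:**
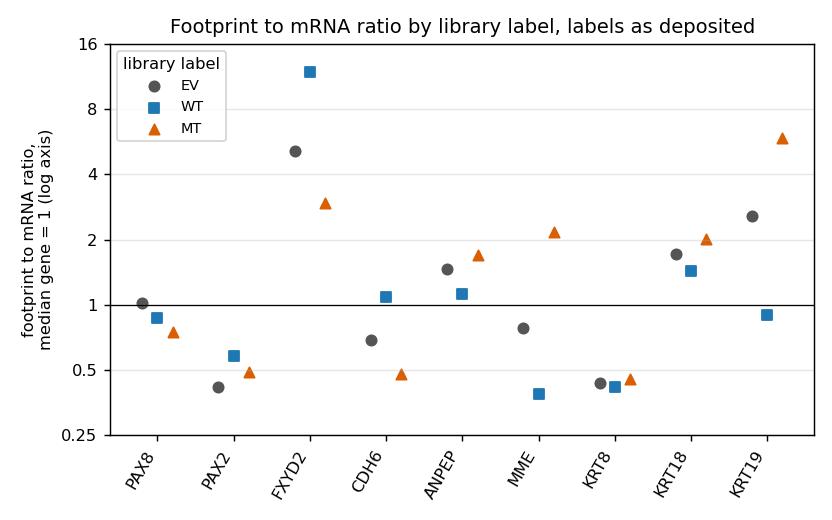
Ratio of Ribo-seq TPM to RNA-seq FPKM of each gene, divided by the ratio of the median gene of the same label, on a log axis, with labels as deposited and 1 point per label (EV circles, WT squares, MT triangles). FXYD2 (2.94 to 11.8 times), KRT18 and ANPEP lie above the median gene under all 3 labels, and KRT8 and PAX2 lie below it. KRT19 (0.901 to 5.90 times), MME, CDH6 and PAX8 lie on both sides of it.

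The difference in footprints beyond the difference in mRNA, often termed translational efficiency, is the footprint log2 difference minus the mRNA log2 difference. As deposited, FXYD2 (1.17, higher) and KRT19 (-1.19, lower) passed the 2-fold rule in WT over EV, 2 of 9 beside 4.21% of all genes. In MT over EV KRT19 passed (1.01, higher), 1 of 9 beside 3.51%. In WT over MT 4 of 9 passed, FXYD2 (1.95) and CDH6 (1.19) upward and KRT19 (-2.20) and MME (-1.39) downward, beside 4.82%. KRT19 ranked 20 from the bottom and FXYD2 22 from the top of 10352 genes there.

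None of these 7 differences passed with WT and MT exchanged in Ribo-seq. FXYD2 was then at 0.42 in WT over EV and 0.45 in WT over MT, and KRT19 at -0.25, 0.07 and -0.31 in WT over EV, MT over EV and WT over MT. CDH6 was at 0.62 and MME at -0.15 in WT over MT. Over all genes the exchange took the share past the rule in WT over MT from 4.82% to 3.36%, and the number from 499 to 348. In WT over MT the exchange reverses the sign of each footprint difference. The 4 members past the rule there had opposite signs in mRNA and footprints, so the size of theirs had to fall. The members past the rule in translational efficiency thus rest on which Ribo-seq library is paired with which RNA-seq library.

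**Figure D4:**
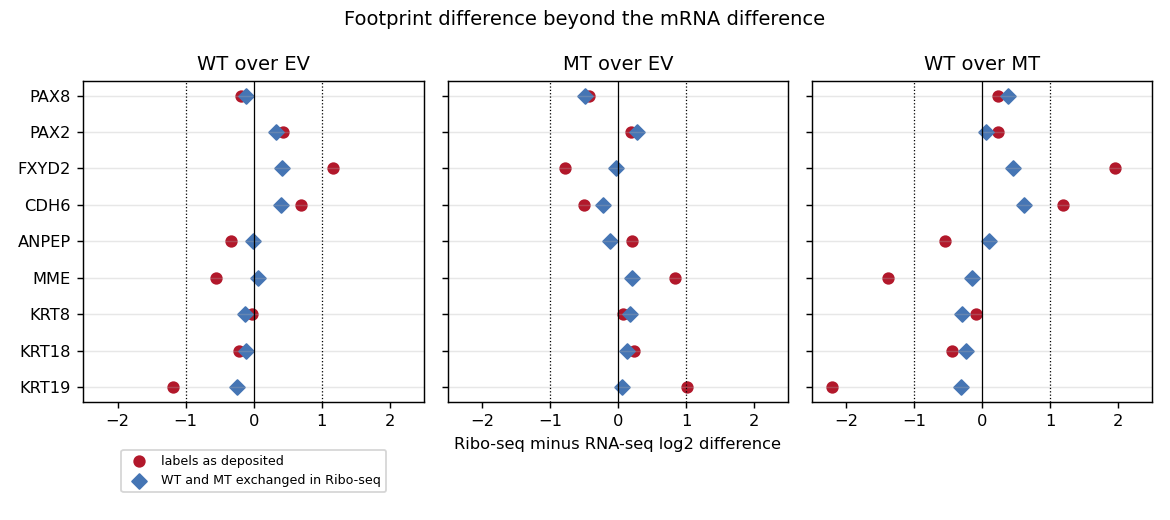
Ribo-seq minus RNA-seq log2 difference of each gene in the 3 comparisons, with labels as deposited (red circles) and with WT and MT exchanged in Ribo-seq (blue diamonds); dotted lines mark the 2-fold rule at -1 and 1. The 7 circles beyond the dotted lines, at -2.20 to 1.95, have diamonds inside them.

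The genes whose 4 differences from EV (WT and MT, both assays) lay nearest to those of FXYD2 among 5031 genes at 10 units in both EV libraries were CD24, CLU and IGFBP3, at distances of 0.37, 0.54 and 0.59. CD24, a surface glycoprotein of tubule progenitors, stood at 1112, 667 and 1186 FPKM and at 673, 659 and 482 TPM in EV, WT and MT. It was low in the same libraries as FXYD2, which follows from choosing the nearest genes by these same differences. For KRT19 the nearest were PPIF, CSF1 and PRSS23, at 0.58, 0.60 and 0.73. CSF1, the macrophage growth factor, stood at 25.9, 36.6 and 21.7 FPKM and at 32.3, 30.1 and 44.7 TPM.

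Other genes of the lineage and of its pathways were taken from 12 lists. Among 26 nephron transcription factors 10 were measured in mRNA and none passed the rule in any mRNA comparison, with a median of -0.18 in WT over MT against 0.00 over all genes. SALL1, a zinc finger regulator of nephron progenitors, passed in footprints of MT over EV (1.06) and WT over MT (-1.08), from 1.44, 1.42 and 4.10 TPM in EV, WT and MT. ESRRG footprints passed in WT over MT (1.02), at 1.32 and 0.146 TPM, so they were measured there through WT alone. HNF4A was under 1 unit in every library. Of the other 7 PAX genes only PAX6 reached 1 unit, at 5.45, 3.49 and 4.85 FPKM.

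Of 25 proximal tubule transport and metabolism genes 6 were measured in mRNA and none passed the rule in either assay, and the endocytic receptors CUBN and LRP2, the phosphate transporter SLC34A1 and the water channel AQP1 were under 1 unit everywhere. PDZK1, a brush border scaffold, stood at 103, 76.9 and 131 FPKM and at 10.4, 16.8 and 12.8 TPM in EV, WT and MT. Its mRNA was lowest in WT, as for FXYD2. None of 18 loop, distal tubule and collecting duct genes reached 1 FPKM. In footprints of WT over MT 1 of them, the sodium channel subunit SCNN1A, was measured and passed (1.04), at 1.59 and 0.255 TPM. SCNN1A was measured there through WT alone.

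The sodium pump subunit ATP1B1 (176, 142 and 161 FPKM), of the complex that FXYD2 works with, was also lowest in WT mRNA. Its WT over EV difference was -0.31, beside -1.02 for FXYD2. Of 5 measured genes of that list none passed in mRNA. FXYD5, which is the other abundant FXYD gene, stood at 49.7, 52.0 and 38.7 FPKM and at 181, 136 and 187 TPM. Of 16 other cadherins and catenins 9 were measured in mRNA and none passed there. In footprints 3 of 8 measured, JUP, CDH3 and CDH13, were lower in WT than in MT by the rule, beside 3.19% of all genes in either direction. CDH3 and CDH13 were near the level of 1 unit from which genes were counted. CDH3 was at 0, 0 and 1.08 TPM in EV, WT and MT, so it was measured through MT alone. CDH13 was at 1.56, 1.31 and 3.88 TPM. JUP (plakoglobin), which links cadherins to filaments, was at 6.32, 0.712 and 10.9 TPM and also passed in WT over EV (-2.10). Its WT footprints were under 1 unit, and its mRNA was low, at 0.729, 0.513 and 1.15 FPKM in EV, WT and MT. CDH3 passed in MT over EV (1.06). CDH1, the cadherin of most epithelia, was under 1 unit in every library. CDH2 (N-cadherin) stood at 78.9, 87.7 and 72.2 FPKM, highest in WT where CDH6 was lowest. CDH16, a cadherin particular to kidney, was at 5.89, 3.48 and 4.65 FPKM. Among 15 other membrane and related peptidases 10 were measured in mRNA. PHEX passed in footprints of WT over EV (1.07), at 2.21 and 0.531 TPM, so it was measured there through WT alone. DPP4, another brush border peptidase, stood at 59.1, 47.9 and 65.0 FPKM.

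Beyond KRT8, KRT18 and KRT19 only 3 of 18 keratins were measured. KRT80 was at 24.9, 28.9 and 27.5 FPKM and KRT10 at 7.05, 7.10 and 7.09 FPKM in EV, WT and MT. KRT15 footprints passed the rule in WT over EV (-1.84) and WT over MT (-1.70), at 7.61, 1.41 and 6.84 TPM, with mRNA of 0.991, 1.38 and 1.22 FPKM. Its mRNA was lowest in EV, the library with the most KRT15 footprints. KRT7, a keratin of collecting duct and of other renal tumour types, was under 1 unit in every library.

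Of 9 injury and progenitor markers of the tubule 7 were measured in mRNA, and none passed the rule in either assay. HAVCR1 (KIM-1), a marker of injured proximal tubule, stood at 106, 99.5 and 123 FPKM and SPP1 (osteopontin) at 533, 368 and 514 FPKM. CD44, a hyaluronan receptor, was at 117, 156 and 112 FPKM.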

How the data were processed

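The deposited table held 20307 rows with 1 column for each of 6 libraries. For RNA-seq no unit is named, and the deposited values were read as FPKM because they sum to 459938 to 469859 per library, although TPM over more genes would look alike. The deposited Ribo-seq columns are TPM, as each sums to 1000000. Per the submitters' processing notes the build was hg 18, and no source used here gives the aligner, the annotation or how footprints were counted. Per the labels' protocols, cycloheximide at 100 µg/ml was added to the medium before lysis, which can shift footprints. Rows without a gene name (605) and 7 symbols on several rows were left out, which left 19669 genes. Scripts (Python 3.11.15, pandas 2.3.3) computed log2(value + 1) differences over all genes, and a gene entered a comparison at 1 unit in at least 1 library (in both assays for translational efficiency). The procedure was tested on simulated data. Some list members are not reported here. The named genes were the 9 members, PHYHD1, list members past the rule (up to 4) or otherwise the most abundant (up to 3), and the 3 nearest genes of members past the rule within an assay at 10 units or more in 1 library. List members named for being under 1 unit, and CDH16, FXYD5, HAVCR1, SPP1, DPP4 and others set beside a member, were chosen after their values were seen. The members and the 12 lists were chosen with earlier results of these data known. Beside these settings 7 alternatives were run, and 2 more were added after seeing the data.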

Additional observations from a re-analysis of the deposited data

Results flagged for a closer look

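In 3 cases a gene passed the 2-fold rule in mRNA and had a footprint difference of the opposite sign under the same labels. For FXYD2 the footprint difference exceeded the mRNA difference by 1.17 in WT over EV and by 1.95 in WT over MT. For KRT19 the footprint minus mRNA difference was -2.20 in WT over MT. The differences between assays were not tested, as each rests on 1 library per label and assay. With WT and MT exchanged in Ribo-seq they were 0.42, 0.45 and -0.31.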

How the results depend on the processing

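No paired analysis was possible because each label has 1 library per assay. Over 7 alternatives giving 542 member differences, 9 more passed and 2 changed sign. Both sign changes were KRT18 footprints in WT over EV (0.01 as reported, -0.01 with median-of-ratios scaling and -0.05 at the same upper quartile). No difference past the rule was lost among those still measured. Differences left unmeasured by the minimum level of 10 units are not in that count. With a pseudocount of 0.1, 2 members passed in mRNA of WT over EV (FXYD2, KRT19), 1 in mRNA of MT over EV (MME), 3 in mRNA of WT over MT (FXYD2, KRT19, MME), 2 in footprints of WT over MT (KRT19, MME) and 2 in translational efficiency of MT over EV (KRT19, MME). With a pseudocount of 0.5, 2 passed in mRNA of WT over EV, beside 0.834% of all genes, and 2 in translational efficiency of MT over EV, beside 5.21%. At a minimum level of 10 units PAX2, KRT19 and MME were not measured in mRNA, so that 1 member passed in mRNA of WT over MT, beside 0.228% of all genes. In translational efficiency 1 then passed in WT over EV, 0 in MT over EV and 2 in WT over MT, beside 1.56%, 1.23% and 1.89%. At the same upper quartile 1 member (KRT19) passed in footprints of WT over MT, beside 3.24% of all genes. With WT and MT exchanged in Ribo-seq, chosen after seeing the data, 0 members passed in translational efficiency in any comparison. The shares of all genes were then 3.41% in WT over EV, 3.65% in MT over EV and 3.36% in WT over MT. Of 27 such member differences 3 changed sign (MME in WT over EV, ANPEP in MT over EV and WT over MT). Read numbers are not known, so the counting error of low values, such as those of MME, could not be given.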

Other observations

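Genes of epithelial junctions and identity were split. Of 18 such genes 7 were measured in mRNA and none passed the rule there, and EPCAM, ESRP1, ESRP2 and GRHL2, which mark or maintain the epithelial state, were under 1 unit in every library. The epithelial transcription factor ELF3 stood at 28.5, 19.7 and 27.1 FPKM in EV, WT and MT, and claudin 4 (CLDN4) at 23.3, 22.4 and 21.7 FPKM. Claudin 1 (CLDN1) footprints stood at 12.7, 5.37 and 14.7 TPM and passed in WT over EV (-1.11) and WT over MT (-1.30), with mRNA of 2.53, 3.60 and 2.57 FPKM.

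Of 8 transcription factors that drive the mesenchymal state 4 were measured, ZEB1, ZEB2, SNAI1 and SNAI2. All 4 were higher in WT than in EV mRNA (median 0.33, against -0.01 over all genes) and in MT than in EV (median 0.16), and none passed the rule. SNAI1 stood at 8.47, 11.3 and 11.3 FPKM and ZEB2 at 10.5, 12.7 and 11.9 FPKM. In footprints the medians were -0.15 and 0.24, with 3 of 4 below 0 in WT over EV and 3 of 4 above 0 in MT over EV. Vimentin (VIM), the filament protein of mesenchymal cells and of clear cell carcinoma, was at 1746, 1911 and 1751 FPKM, more than any keratin.

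Of 12 plakins and other intermediate filament genes 7 were measured in mRNA, and none passed the rule in mRNA or in footprints. Desmoplakin (DSP), which anchors keratin filaments at desmosomes, stood at 3.12, 3.04 and 4.80 FPKM and at 2.22, 1.04 and 0.757 TPM in EV, WT and MT, with EV the highest in footprints.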
